A study of Mus musculus with 2 samples.

Results

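The genes described are 7 markers by which mammary stem and progenitor cells are sorted or recognised, Prom1, Ly6a, Cd24a, Procr, Aldh1a3, Itga2 and Itgb1. They were taken by symbol from 32285 measured genes, and all 7 were among the 16037 gene symbols that the authors kept. Single-cell RNA sequencing was done on luminal-labelled cells of mammary tumors from 2 mice of 1 genotype, Krt8-CreERT/Rosa26-mTmG/MMTV-PyMT, with no untreated or wild-type mouse analysed here. In these mice the polyoma middle T oncogene is driven in mammary epithelium by the MMTV promoter, and tamoxifen switches on a Cre recombinase that is driven by Krt8, a keratin of luminal cells, so that such cells and their descendants carry green fluorescent protein (GFP). Tamoxifen was given at 150 mg/kg on 3 days in week 5 and 3 days in week 6, tumors were collected at 1.5 cm3, and cells negative for DAPI, CD31 and CD45 and positive for GFP were sorted. The annotated cells numbered 3829 in mouse 1 and 5330 in mouse 2, with a median of 15014 and 9470 unique molecular identifiers (UMIs, 1 per captured transcript), and the authors placed them in 18 clusters.

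Cell sorting of the mouse mammary gland rests on a small set of surface proteins. CD24, a heavily glycosylated protein encoded by Cd24a, is carried by luminal and basal epithelium at different densities. CD29, the integrin beta-1 chain encoded by Itgb1, pairs with alpha chains to bind extracellular matrix and is dense on basal cells. CD49b, the integrin alpha-2 chain encoded by Itga2, binds collagen with Itgb1 and is used to sort luminal progenitors. SCA-1 (Ly6a), a glycolipid-anchored protein, and CD133 (Prom1), a membrane protein of cell protrusions, are used in the normal gland to separate mature, hormone-sensing luminal cells from progenitors. The endothelial protein C receptor (Procr) has been used to mark a basal stem cell population, and is also made by endothelial and stromal cells. Aldh1a3 differs from the others in being an intracellular enzyme, which makes retinoic acid from retinal and gives luminal progenitors aldehyde dehydrogenase activity. RNA was measured here, not the surface protein that a sort reads.

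On GRCm38, Prom1 lies on chromosome 5 (43993620 to 44102032, minus strand), Ly6a on chromosome 15 (74994877 to 74998031, minus), Cd24a on chromosome 10 (43578284 to 43584265, plus) and Procr on chromosome 2 (155751117 to 155755471, plus). Aldh1a3 lies on chromosome 7 (66390890 to 66427517, minus), Itga2 on chromosome 13 (114833081 to 114932100, minus) and Itgb1 on chromosome 8 (128685654 to 128733200, plus). All are protein-coding genes. The Ly6 family and Cd24a have related copies in the mouse genome, which matters because reads from near-identical copies can be divided among genes. Of the 411 stretches of 90 bases in the last 500 bases of the longest transcript of each marker, 0 occurred unchanged in an annotated transcript of another gene, for each of the 7 markers.

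RefSeq promoter sequence on GRCm38.p6 was at hand for 4 of the 7 markers. The promoters of Itga2 and Itgb1 are shown because their levels followed each other across clusters, and that of Procr because few cells of 1 cluster held a large share of its UMIs. Each is the 250 bases before the RefSeq transcription start, 5′ to 3′ on the gene's strand, at chr13:114932101-114932350 for Itga2, chr8:128685404-128685653 for Itgb1 and chr2:155750967-155751216 for Procr. For Procr that start lies downstream of the gene start given above (155751117), so the end of its window overlaps the gene as placed there. Capitals mark matches on either strand to the TATA box (TATAAA), the CCAAT box (CCAAT), the GC box (GGGCGG) or the AP-1 site (TGANTCA).
Itga2: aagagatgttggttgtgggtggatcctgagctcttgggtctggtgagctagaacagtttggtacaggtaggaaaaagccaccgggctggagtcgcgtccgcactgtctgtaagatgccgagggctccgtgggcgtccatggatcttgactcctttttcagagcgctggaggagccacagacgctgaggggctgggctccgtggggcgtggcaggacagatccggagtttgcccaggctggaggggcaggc
Itgb1: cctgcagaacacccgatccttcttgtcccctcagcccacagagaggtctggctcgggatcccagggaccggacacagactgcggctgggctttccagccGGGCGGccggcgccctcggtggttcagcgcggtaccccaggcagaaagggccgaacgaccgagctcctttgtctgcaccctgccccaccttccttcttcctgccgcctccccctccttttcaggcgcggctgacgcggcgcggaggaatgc
Procr: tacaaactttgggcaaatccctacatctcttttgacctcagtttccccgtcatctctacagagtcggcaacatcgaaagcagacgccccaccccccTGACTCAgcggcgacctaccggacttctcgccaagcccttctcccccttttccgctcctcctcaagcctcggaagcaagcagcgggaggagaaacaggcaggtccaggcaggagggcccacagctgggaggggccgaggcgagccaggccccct
Itga2 had no match to the 4 motifs, Itgb1 had 1 GC box and Procr had 1 AP-1 site. Of 32851 promoter windows of the same length, 32.7% held a GC box, 6.75% an AP-1 site, 12.4% a TATA box and 33.8% a CCAAT box. The matches are letters in a window and no evidence of binding.

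Levels are given as CPM, the UMIs of a gene for every 1000000 UMIs summed over the cells of 1 mouse in 1 cluster. Because detection in single cells rises with depth, shares of cells with a UMI are given after each cell was thinned to 2000 UMIs, which left 3337 cells of mouse 1 and 4473 of mouse 2 (1349 shallower cells left out), with Clopper-Pearson 95% intervals that cover counting error only. Cd24a was detected most widely, in 63.1% (61.4 to 64.8) of cells of mouse 1 and 63.1% (61.7 to 64.5) of mouse 2, followed by Itgb1 in 36.2% (34.6 to 37.9) and 34.5% (33.1 to 35.9). Ly6a was found in 23.1% (21.7 to 24.6) of cells of mouse 1 and 10.1% (9.24 to 11.03) of mouse 2, and Prom1 in 3.75% (3.13 to 4.45) and 8.05% (7.27 to 8.88), so that these markers differed between the mice in opposite directions. Itga2 was found in 3.81% and 4.18% of cells and Aldh1a3 in 3.09% and 3.80%. Procr was the rarest, with a UMI in 14 cells (0.420%, 0.230 to 0.703) of mouse 1 and 35 cells (0.782%, 0.546 to 1.09) of mouse 2.

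The 20 barcodes that both libraries share include 9 annotated in both, and no other sign of shared cells was sought. As to the luminal label, the pan-luminal genes (Krt8, Krt18, Krt19, Krt7, Epcam and claudins) summed to 4306 to 32234 CPM over the clusters of both mice. Cluster 6 had a mean score for the authors' basal signature of 0.926 and 0.967, close to 0.976 and 0.963 in cluster 16. Its basal and myoepithelial genes summed to 4615 and 4510 CPM, against 45.1 and 77.4 CPM in cluster 13 and at most 2341 CPM in any other cluster. Cluster 13 had a mean mature-luminal score of 0.998 and 1.00. Cluster 6 also carried RNA of genes that mark other cell types. Whether this RNA came from such cells or from the tumor cells themselves was not tested. Its fibroblast genes, all 7 detected, summed to 1498 and 2964 CPM, against 39.4 and 323 CPM in cluster 13 and at most 20.3 CPM in any other cluster. Endothelial genes reached 44.3 and 490 CPM in cluster 6 and pericyte genes 26.4 and 278 CPM. Of the 80 cells with UMIs of at least 3 genes of any 1 list of another cell type, 28 of 34 in mouse 1 and 41 of 46 in mouse 2 belonged to cluster 6. Calls on cluster 6 that changed without these cells are given with both values.

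**Figure D1:**
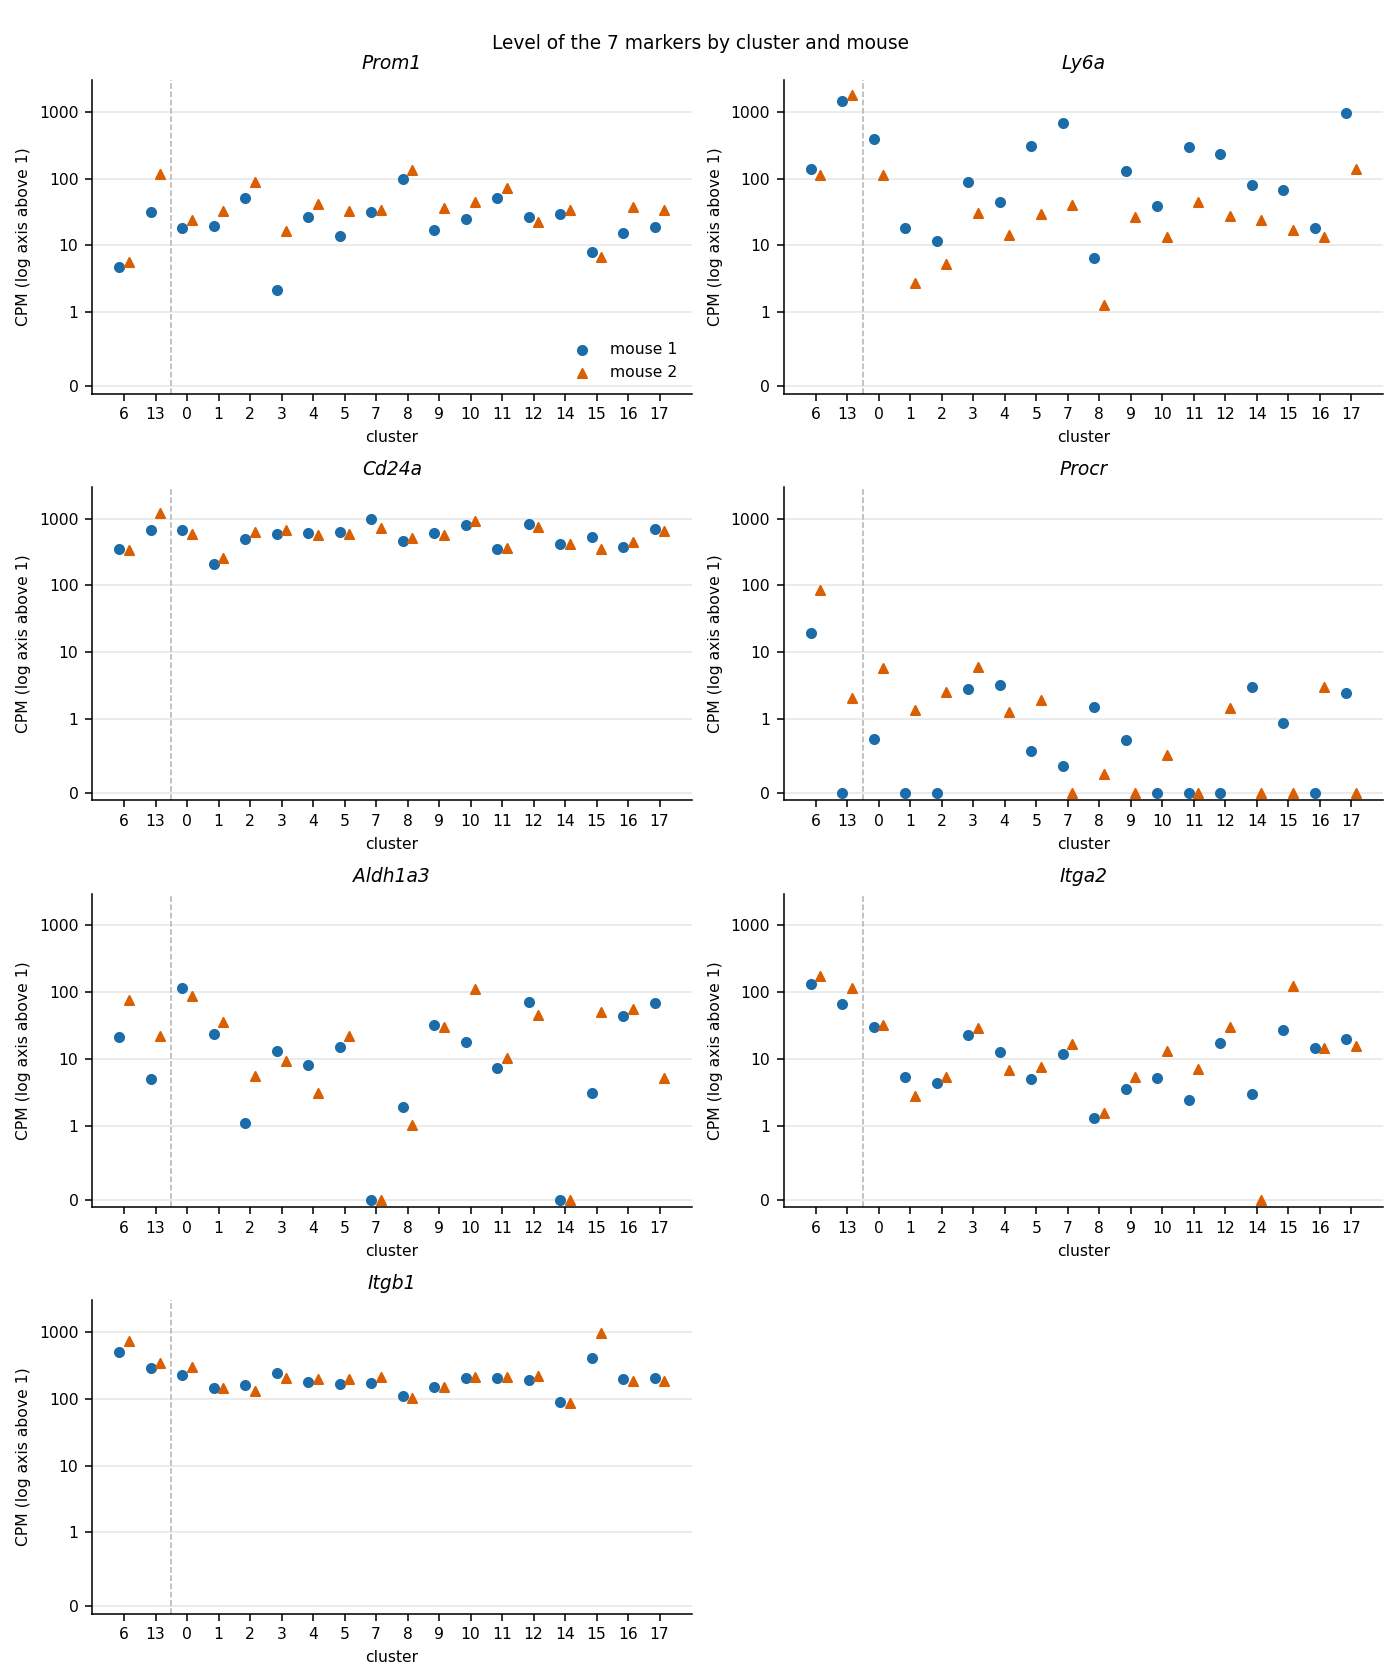
Level of each of the 7 markers, in CPM on a log axis above 1, in the 18 clusters of mouse 1 (circles) and mouse 2 (triangles), with clusters 6 and 13 left of the dashed line and the other clusters to its right. Ly6a peaked in cluster 13 of both mice (1469 and 1791 CPM), Itga2 and Procr in cluster 6, and Prom1 had its lowest mean in cluster 6 (4.69 and 5.66 CPM).

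All 7 markers differed among the 18 clusters, in an F test over sums of 2 mice (edgeR quasi-likelihood, F from 7.12 for Aldh1a3 to 30.8 for Itga2, adjusted p from 6.68e-05 to 4.44e-10). The same was true of 81.0% of the 11603 genes tested, so this count sets the markers apart from few genes. The clusters were themselves drawn from expression of these cells, and the tests ask whether both mice show a difference between the clusters as given. The markers did not share 1 pattern. Their highest mean levels were in cluster 13 (Ly6a, Cd24a), cluster 6 (Procr, Itga2), cluster 8 (Prom1), cluster 0 (Aldh1a3) and cluster 15 (Itgb1).

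The luminal sorting markers come first. Ly6a had the widest range of the abundant markers. It stood at 1469 and 1791 CPM in cluster 13, where 77.8% of 72 and 79.8% of 183 thinned cells had a UMI, and at 6.42 and 1.29 CPM in cluster 8, where 0.602% of 166 cells and 0 of 222 cells (interval up to 1.65%) had one. Median depth was 15278 and 11818.5 UMIs in cluster 13 and 26877.5 and 16144 UMIs in cluster 8, so the low share in cluster 8 did not go with shallow cells. Between these ends the mice parted: cluster 17 had 970 CPM in mouse 1 and 142 CPM in mouse 2, cluster 7 had 686 and 41.0 CPM, and cluster 0 had 389 and 114 CPM. Mouse 1 was higher in 17 of 18 clusters, with a median log2 ratio of 1.57 of mouse 1 over mouse 2, and cluster 13 was the exception. The order of the clusters was alike in the mice, with a Spearman rho of 0.94 over 18 clusters. After cluster 13, the ranges of the 2 mice overlapped between every neighbour in the order. Cluster 13 held 62.2% of all Ly6a UMIs in mouse 2 but 11.3% in mouse 1, where cluster 0 held 37.2%.

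Prom1 gave the highest levels in cluster 8, at 99.9 and 134 CPM, with a UMI in 15.1% and 19.8% of thinned cells. Cluster 13 followed with 32.0 and 120 CPM, cluster 2 with 50.7 and 90.9 CPM and cluster 11 with 51.3 and 73.7 CPM, and the ranges of these 4 clusters overlapped from 1 neighbour to the next. Cluster 6 had the lowest mean, at 4.69 and 5.66 CPM from 16 and 9 UMIs. Its range did not overlap that of its neighbour, cluster 15, at 7.99 and 6.79 CPM from 34 and 2 UMIs. The value of cluster 15 in mouse 2 came from 17 cells, so that gap is uncertain. Cluster 3 was lower than cluster 6 in mouse 1 (2.16 CPM, against 16.4 CPM in mouse 2). Mouse 2 was higher in 16 of 18 clusters (median log2 ratio of mouse 1 over mouse 2, -0.59). Clusters 8 and 2, which were high in Prom1, were the lowest in Ly6a, whereas cluster 13 was high in both.

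Cd24a varied least. Its highest cluster mean was 1.61 times the median of the clusters, against 47.1 times for Procr and 23.6 times for Ly6a. Cluster 13 had 685 and 1231 CPM, cluster 10 had 799 and 942 CPM and cluster 7 had 989 and 733 CPM, with overlapping ranges. Cluster 6 was second from the bottom at 357 and 343 CPM, above cluster 1 at 213 and 260 CPM. Cluster 1 was shallow (median 1258 and 1009 UMIs per cell), whereas cells of cluster 6 had medians of 12186 and 8146 UMIs.

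The integrin chains were highest in overlapping sets of clusters. Itga2, the collagen-binding alpha-2 chain, had 134 and 172 CPM in cluster 6, a range above that of every other cluster. Cluster 13 followed with 66.4 and 117 CPM and cluster 15 with 27.0 and 122 CPM, and cluster 8 was lowest with 1.28 and 1.54 CPM. Itgb1, its beta partner, had 413 and 987 CPM in cluster 15, 510 and 748 CPM in cluster 6, 295 and 342 CPM in cluster 13 and 226 and 300 CPM in cluster 0. The high value of cluster 15 in mouse 2 came from 17 cells, against 191 cells in mouse 1. Clusters 14 and 8 were lowest in Itgb1, at 89.0 and 87.6 CPM and at 111 and 103 CPM. Itgb1 had a UMI in 66.5% of 245 and 79.0% of 157 thinned cells of cluster 6, whereas Itga2 had one in 12.7% and 13.4%.

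The rare markers were Procr and Aldh1a3. Procr had 67 UMIs in cluster 6 of mouse 1 and 138 in mouse 2 (19.6 and 86.8 CPM), which was 48.6% and 46.5% of all its UMIs in those mice. No other cluster exceeded 6.08 CPM, and 7 clusters of mouse 1 and 6 of mouse 2 had no Procr UMI. The order of its clusters was unlike in the mice, with a Spearman rho of -0.02. Cluster 13 had 0 UMIs in mouse 1, which allows up to 2.46 CPM at a floor of 3 UMIs, and 5 UMIs (2.07 CPM) in mouse 2. Aldh1a3 had its highest mean in cluster 0, the largest cluster, at 116 and 88.7 CPM, which held 74.9% and 55.5% of its UMIs. Cluster 10 had 17.8 and 112 CPM, cluster 12 had 71.6 and 46.2 CPM and cluster 6 had 21.4 and 75.5 CPM, so cluster 0 ranked first in mouse 1 and cluster 10 in mouse 2. Clusters 7 and 14 had no Aldh1a3 UMI in either mouse, which allows up to 0.553 and 3.00 CPM in cluster 7 and 4.45 and 5.97 CPM in cluster 14.

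Cluster 6 was set against cluster 13 because these are the clusters with the highest level of basal genes and the highest mature-luminal score. Of the 7 markers, 5 differed (2 higher and 3 lower in cluster 6), where 22.3% of all genes tested did, 11.9% higher and 10.4% lower. The median log2 fold change of the markers was 0.63, against -0.01 over all genes tested. On the log2 scale, cluster 6 fell below cluster 13 in Prom1 (-3.83, SE 0.51, adjusted p = 8.83e-06), Ly6a (-4.05, SE 0.70, adjusted p = 1.83e-04) and Cd24a (-1.58, SE 0.24, adjusted p = 3.57e-05). It stood above cluster 13 in Procr (5.17, SE 1.07, adjusted p = 0.0011) and Itgb1 (0.84, SE 0.24, adjusted p = 0.015). The fitted value of Procr rests on 0 and 5 UMIs in cluster 13, and on log2(CPM + 5) the difference was 2.30 in mouse 1 and 3.70 in mouse 2. Of the 5 that differed, Prom1, Ly6a and Cd24a were thus lower in cluster 6, and Procr and Itgb1 higher. Itga2 had a log2 fold change of 0.63 (95% interval -0.16 to 1.42, adjusted p = 0.25) and Aldh1a3 of 1.53 (-0.34 to 3.41, adjusted p = 0.24). Those intervals leave room for a sizeable difference in either gene. The Itgb1 call was lost without 1 sum: adjusted p was 0.16 without cluster 6 of mouse 2 (log2 fold change 0.65), 0.096 without cluster 13 of mouse 1 (0.80) and 0.071 without cluster 13 of mouse 2 (0.88). In a fit of the 4 sums of clusters 6 and 13 alone, Aldh1a3 (1.77, adjusted p = 2.23e-04) and Itga2 (0.68, adjusted p = 0.044) passed as well. That fit has far fewer residual degrees of freedom than the 17 of the main fit. Its smaller p-values are thus no firmer ground for a call.

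Against the unweighted mean of the 16 clusters other than 6 and 13, all 7 markers differed in cluster 6, 5 higher and 2 lower, where 25.3% of genes tested did (16.4% higher, 8.94% lower). That mean is taken on the log scale, so clusters with few or no UMIs of a gene pull it down. The median log2 fold change of the markers was 1.68. Procr (log2 fold change 5.55, SE 0.48, adjusted p = 4.09e-09), Itga2 (4.02, SE 0.22, adjusted p = 6.40e-13) and Itgb1 (1.68, SE 0.15, adjusted p = 3.42e-09) were higher, and so were Aldh1a3 (2.33, SE 0.67, adjusted p = 0.013) and Ly6a (1.60, SE 0.44, adjusted p = 0.0083). Prom1 (-2.46, SE 0.44, adjusted p = 1.24e-04) and Cd24a (-0.68, SE 0.18, adjusted p = 0.0062) were lower. The calls of Ly6a, Aldh1a3 and Cd24a were the fragile ones. On log2(CPM + 5) the difference was 0.45 in mouse 1 and 1.9 in mouse 2 for Aldh1a3, and 0.52 and 2.11 for Ly6a. By CPM, cluster 6 ranked 7 and 3 among the 18 clusters in Aldh1a3, and 8 and 4 in Ly6a. When the other cells were pooled to 1 sum per mouse, Ly6a had a log2 fold change of 0.15 (adjusted p = 0.84) and Aldh1a3 turned to -0.10 (adjusted p = 0.88), and in that sum cluster 0 counts by its number of cells. Without cluster 6 of mouse 2, Ly6a had 0.65 (adjusted p = 0.61), Aldh1a3 1.45 (adjusted p = 0.42) and Cd24a -0.58 (adjusted p = 0.19), and without cluster 6 of mouse 1, Cd24a had -0.71 (adjusted p = 0.074). Without the mouse as a block, Ly6a had 1.15 (adjusted p = 0.35).

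Cluster 13 against the same 16 clusters gave 5 higher markers and none lower, where 27.1% of genes tested differed (16.6% higher, 10.5% lower). Adjusted p for the other 2 markers was 0.83 for Procr and 0.54 for Aldh1a3. On the log2 scale Ly6a (5.65, SE 0.31, adjusted p = 6.75e-13) and Itga2 (3.39, SE 0.25, adjusted p = 1.15e-10) rose most. Prom1 (1.37, SE 0.27, adjusted p = 5.14e-04), Cd24a (0.90, SE 0.15, adjusted p = 8.49e-05) and Itgb1 (0.84, SE 0.16, adjusted p = 3.83e-04) rose less. Without cluster 13 of mouse 2, Prom1 had 0.61 (adjusted p = 0.44) and Cd24a 0.40 (adjusted p = 0.23), and neither passed. Procr had a log2 fold change of 0.38 (95% interval -1.47 to 2.24) and Aldh1a3 of 0.80 (-0.98 to 2.58). With the other cells pooled to 1 sum per mouse, Aldh1a3 turned to -1.55 (adjusted p = 0.0021). The 3 comparisons share sums of clusters, so their values are set side by side and not counted as separate evidence.

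**Figure D2:**
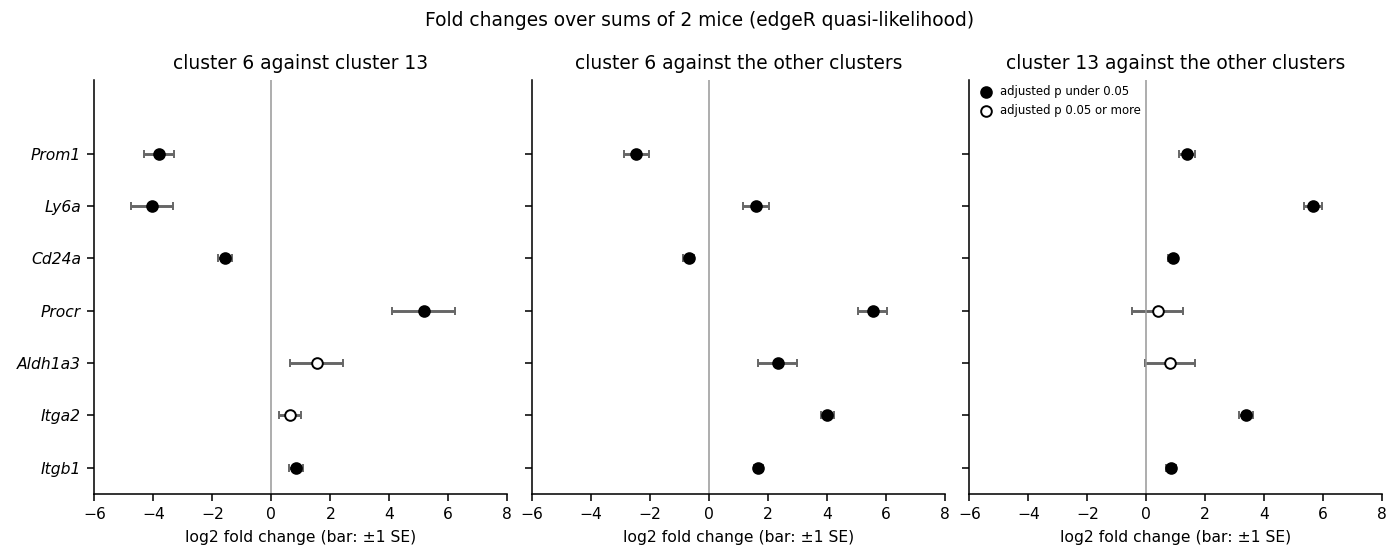
Log2 fold change of each marker in the 3 comparisons, with bars of 1 standard error and filled points for an adjusted p under 0.05 (edgeR quasi-likelihood over sums of 2 mice). Prom1, Ly6a and Cd24a lie left of 0 in cluster 6 against cluster 13 and right of 0 in cluster 13 against the other clusters, and Itga2 lies at 4.02 and 3.39 in the comparisons of each cluster with the others.

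Cells within cluster 6 did not carry the markers alike. Cells with UMIs of at least 3 fibroblast genes (25 in mouse 1, 28 in mouse 2) had 123 and 395 CPM of Procr, against 6.30 and 23.7 CPM in cells with both luminal (Krt8, Krt18) and basal (Krt5, Krt14) keratins (79 and 71 cells) and 5.95 and 21.7 CPM in cells with luminal keratins only (111 and 57 cells). Ly6a was at 213 and 569 CPM in the fibroblast-gene cells, against 45.0 and 18.7 CPM in cells of both keratins and 203 and 39.4 CPM in cells with luminal keratins only, so in mouse 1 the last set was close to the first. Cd24a went the other way, with 165 and 35.9 CPM in the fibroblast-gene cells, against 388 and 445 CPM in cells of both keratins and 396 and 356 CPM in those with luminal keratins only. Itga2 was highest in the cells of both keratins, at 239 and 237 CPM, against 80.9 and 157 CPM in cells with luminal keratins only and 72.7 and 13.5 CPM in the fibroblast-gene cells. Itgb1 had 676 and 807 CPM in the cells of both keratins, against 404 and 628 CPM in cells with luminal keratins only, and 417 and 861 CPM in the fibroblast-gene cells, which were lower than the cells of both keratins in mouse 1 and higher in mouse 2. In mouse 1, 1 cell held 42 of the 67 Procr UMIs of cluster 6, and the 10 cells with most Procr held 89.6% and 80.4% of them in the 2 mice.

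Leaving out the 80 cells that held genes of other cell types left 5.33 and 19.2 CPM of Procr in cluster 6, against 19.6 and 86.8 CPM with them. Those cells were 34 and 46 of the annotated cells and carried 37.0% and 38.7% of all Procr UMIs. Procr then fell under the filter on low counts, and in a fit with no filter its log2 fold change was 3.54 against the 16 clusters (adjusted p = 1.32e-07) and 3.09 against cluster 13 (adjusted p = 0.017). The higher level of Procr in cluster 6 was thus smaller without them and still past the threshold in that fit, which was chosen after seeing the data. Leaving out those cells did not clear fibroblast genes from cluster 6. The 3 fibroblast genes still tested were all higher than in the 16 clusters, with a median log2 fold change of 7.81. Whether the remaining Procr lay in cells with these genes was not tested. Ly6a fell to 130 and 14.4 CPM in cluster 6 without those cells, against 139 and 114 CPM with them, and to a log2 fold change of 0.19 against the 16 clusters (adjusted p = 0.85). Cd24a had -0.47 (adjusted p = 0.057) in the same fit. Itga2 at 143 and 214 CPM, Itgb1 at 524 and 738 CPM and Prom1 at 4.66 and 7.21 CPM kept their calls against the 16 clusters. Of the 6 markers then tested, 1 was higher and 3 lower against cluster 13 (median -0.26), and 3 were higher and 1 lower against the 16 clusters (median 0.96).

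**Figure D3:**
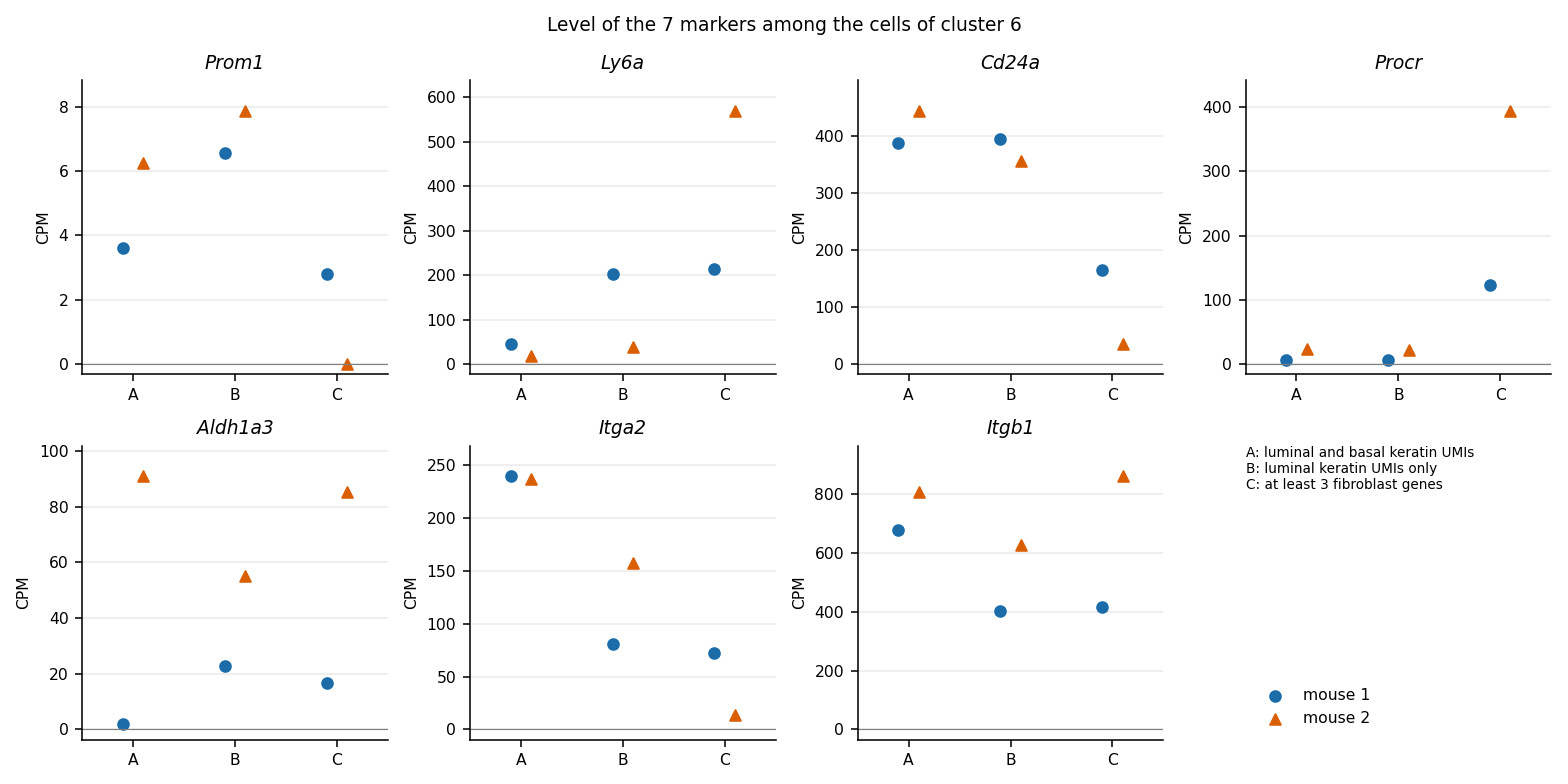
CPM of each marker in 3 sets of cells of cluster 6, those with luminal and basal keratin UMIs (A), those with luminal keratin UMIs only (B) and those with UMIs of at least 3 fibroblast genes (C), in mouse 1 (circles) and mouse 2 (triangles). Procr stood at 123 and 395 CPM in the fibroblast-gene cells, and Itga2 at 239 and 237 CPM in the cells of both keratins.

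Markers also differed in how their UMIs were spread over the cells of a cluster. An even spread would give a share of detected cells that follows from the mean level alone. Prom1 in cluster 8 was close to it, with 15.1% and 19.8% of thinned cells detected against 16.0% and 20.2% for an even spread. Itgb1 in cluster 6 was close as well, at 66.5% and 79.0% against 71.0% and 80.4%. Aldh1a3 in cluster 0 was far from it, at 6.04% and 7.65% against 17.4% and 16.8%. In that cluster the cells with an Aldh1a3 UMI had a mean of 12.3 and 7.35 UMIs, and the 1% of cells with most Aldh1a3 held 44.1% and 40.4% of it. Ly6a in cluster 0 was detected in 32.5% and 14.9% of cells against 53.8% and 20.9%, and even in cluster 13 in 77.8% and 79.8% against 93.7% and 96.7%. Itga2 in cluster 6 was detected in 12.7% and 13.4% of cells against 20.4% and 19.0%, and Cd24a there in 40.4% and 39.5% against 48.2% and 48.8%. Ly6a, Aldh1a3, Itga2 and Cd24a were thus found in fewer cells of these clusters than their levels would allow, and Prom1 and Itgb1 in nearly as many. Procr in cluster 6 was detected in 2.86% of cells of mouse 1 against 4.39%, and in 5.73% of mouse 2 against 19.98%.

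**Figure D4:**
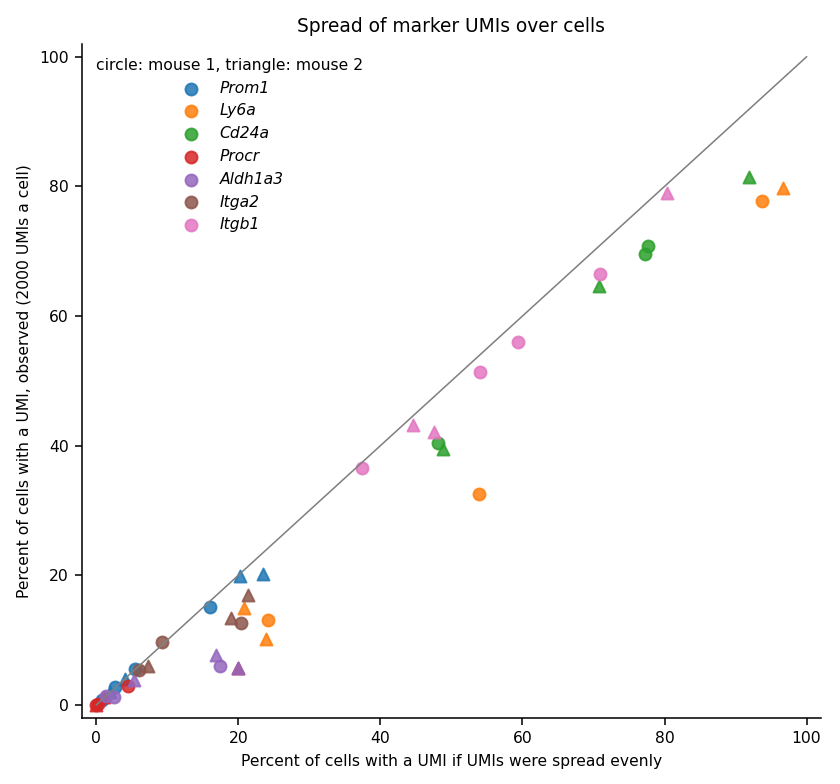
Observed percent of cells with a UMI, after thinning to 2000 UMIs a cell, against the percent that an even spread of the same UMIs would give, for each marker in clusters 0, 6 and 13 and its highest cluster, where at least 50 thinned cells were present. The point furthest below the line of equality is Ly6a in cluster 0 of mouse 1 (32.5% against 53.8%). Points of Aldh1a3, Procr, Cd24a and Itga2 in cluster 6 also fall below it (5.73% against 19.98% for Procr in mouse 2). Those of Prom1 and Itgb1 lie near it.

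Pairs of markers used together in sorting were looked for in the same cell. Cd24a and Itgb1, the classic pair for repopulating cells, were both detected in 22.7% and 21.5% of thinned cells, next to 22.8% and 21.8% for the product of their shares. In cluster 6 the pair was found in 26.5% and 31.8% of cells, and in cluster 13 in 38.9% and 33.3%. Ly6a and Itga2 were found together in 0.839% and 0.715% of all cells, next to products of 0.880% and 0.422%. In cluster 13 they were found together in 9.72% and 13.7%, next to products of 7.56% and 13.5%. In cluster 6, which had the highest Itga2, Ly6a and Itga2 met in 1 of 245 and 0 of 157 cells (intervals 0.0103% to 2.25% and 0% to 2.32%). The products of the shares there, 1.65% and 1.36%, lie within these intervals, so the cells are too few to compare. Ly6a and Prom1 were found together in 2.78% and 16.4% of cluster 13, next to products of 4.32% and 16.1%. Procr met a basal keratin in 1 cell of mouse 1 and 1 cell of mouse 2 (0.0300% and 0.0224%), next to products of 0.0114% and 0.0490%, too few cells to compare. These are shares of detection at 2000 UMIs, and not of cells with both proteins.

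Across the 18 clusters, Itga2 and Itgb1 followed each other most closely of the 21 marker pairs, with a Pearson r of 0.84 in mouse 1 and 0.92 in mouse 2 on log2(CPM + 5). All correlations here are descriptions over clusters of cells from the same 2 libraries. Prom1 and Itgb1 ran against each other, at -0.61 and -0.63, and Prom1 and Itga2 at -0.58 and -0.52. Among 8060 genes ranked by the smaller r of the mice, those most like Itga2 were Gsn (0.86 and 0.87), an actin-severing protein, then Itgb1 and Rbms3 (0.84 and 0.86). Those most like Itgb1 included Itga2 and Rbms3 (0.85 and 0.83). Procr was most like Pi16 (0.89 and 0.94), Col1a1 (0.89 and 0.92), a fibrillar collagen chain, and Mfap5 (0.88 and 0.93), a microfibril protein, among 8061 genes. Cd24a was most like the epithelial cadherin Cdh1 (0.76 and 0.74), then Actg1 and Cystm1. Ly6a was most like Ly6c1 (0.88 and 0.79), a member of its own gene family, then Cmtm6 and AW112010. Prom1 was most like Lrrc26 (0.75 and 0.83), Cldn10 and Tmc4, and Aldh1a3 was most like Hnrnph1 (0.69 and 0.69), Samd4 and Fam167a. With Spearman in place of Pearson, only Lrrc26 for Prom1, Cmtm6 for Ly6a, Cdh1 for Cd24a, Hnrnph1 and Samd4 for Aldh1a3 and Itga2 for Itgb1 stayed among the 3 genes most like their marker.

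The authors' scores for luminal progenitor, mature luminal and basal signatures run from 0 to 1 in each cell. The genes of the signatures are not given in the sources used here and may include markers, so levels along the scores are a description. Ly6a rose steeply at the top of the mature-luminal score in mouse 2. In 5 equal ranges of the score from low to high it had 42.5, 41.5, 78.5, 64.1 and 799 CPM. In mouse 1 it had 208, 404, 468, 315 and 514 CPM. Cluster 13, which held 11.3% and 62.2% of Ly6a UMIs in the mice, is among these cells. Within cluster 0 the log2 ratio of highest over lowest range (on CPM + 5) was -0.25 in mouse 1 and 1.09 in mouse 2. Along the luminal progenitor score the mice went apart for Ly6a over all cells. The highest range had 413 CPM against 166 CPM in the lowest in mouse 1, and 95.6 against 162 CPM in mouse 2. Itga2 had 57.7 and 51.1 CPM in the highest range of the basal score, against 19.6 and 21.1 CPM in the lowest. Itgb1 had 374 and 333 CPM there, against 200.3 and 214 CPM. Cd24a was lower in the highest range, with 429 and 472 CPM against 674 and 655 CPM. Procr had 8.01 and 19.4 CPM against 1.14 and 2.52 CPM. For Itga2 and Procr these steps were small outside cluster 6, where the log2 ratio of highest over lowest range (on CPM + 5) was -0.04 and 0.15 for Itga2, against 1.35 and 1.10 with it, and 0.18 and 0.31 for Procr, against 1.08 and 1.70 with it. For Itgb1 it was 0.58 and 0.17 outside cluster 6, against 0.89 and 0.62 with it, and for Cd24a -0.53 and -0.38, against -0.64 and -0.47. Along the mature-luminal score Itga2 also stood higher at the top, with 64.4 and 71.6 CPM against 24.0 and 19.1 CPM. There the step was present outside cluster 6 too, with log2 ratios of 0.61 and 1.66. Cluster 13, with a mean mature-luminal score of 0.998 and 1.00, stays among those cells. Within cluster 0 the log2 ratios for Itga2 were 0.23 and -0.71.

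Prom1 stood higher at the top of the mature-luminal score in both mice, with 31.6 and 72.9 CPM against 18.6 and 44.1 CPM at the bottom (log2 ratios 0.64 and 0.67, and 1.00 and 0.82 outside cluster 6). Within cluster 0 the log2 ratios of Prom1 were -0.64 and -0.11, and in mouse 1 the highest range held 4 UMIs in 33 cells. Spearman rho between thinned Prom1 UMIs and this score in cluster 0 was 0.05 and -0.01, so no direction is read from it. Along the basal score it was lower at the top (log2 ratios -0.64 and -0.36). It had 30.6 and 49.3 CPM in the highest range of the luminal progenitor score, against 18.0 and 49.3 CPM in the lowest. Aldh1a3 had 61.9 and 61.5 CPM there, against 23.3 and 32.5 CPM, a difference in the same direction in both mice. Within cluster 0 its log2 ratios were 0.91 and 0.18. In thinned cells of cluster 0 the mice went apart. The highest range had 133 CPM against 64.2 CPM in the lowest in mouse 1, and 77.9 against 109 CPM in mouse 2. Cell by cell the relations were weak. Spearman rho between thinned UMIs and a score lay between -0.16 (Cd24a and the basal score, mouse 1) and 0.22 (Ly6a and the mature-luminal score, mouse 2), while UMIs per cell before thinning had a rho of -0.29 and -0.25 with the luminal progenitor score. Cells above 0.5 for both the luminal progenitor and the basal score (331 and 421) had 64.0 and 57.2 CPM of Itga2, against 17.3 and 14.1 CPM in cells above 0.5 for no score (1503 and 2292). Procr had 16.6 and 43.9 CPM in those cells, against 1.59 and 3.12 CPM, and Itgb1 had 371 and 410 CPM, against 213 and 209 CPM. Cluster 6 was not left out of this joint class. Its mean scores were 0.62 and 0.68 for luminal progenitor and 0.93 and 0.97 for basal. Whether joint-score cells outside cluster 6 differ in these 3 markers was not tested. Cells above 0.5 for the mature-luminal score only (237 and 402) had 710 and 1029 CPM of Ly6a, against 182 and 44.0 CPM in cells above 0.5 for none. Cluster 13, with 1469 and 1791 CPM of Ly6a, was not left out of this class.

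**Figure D5:**
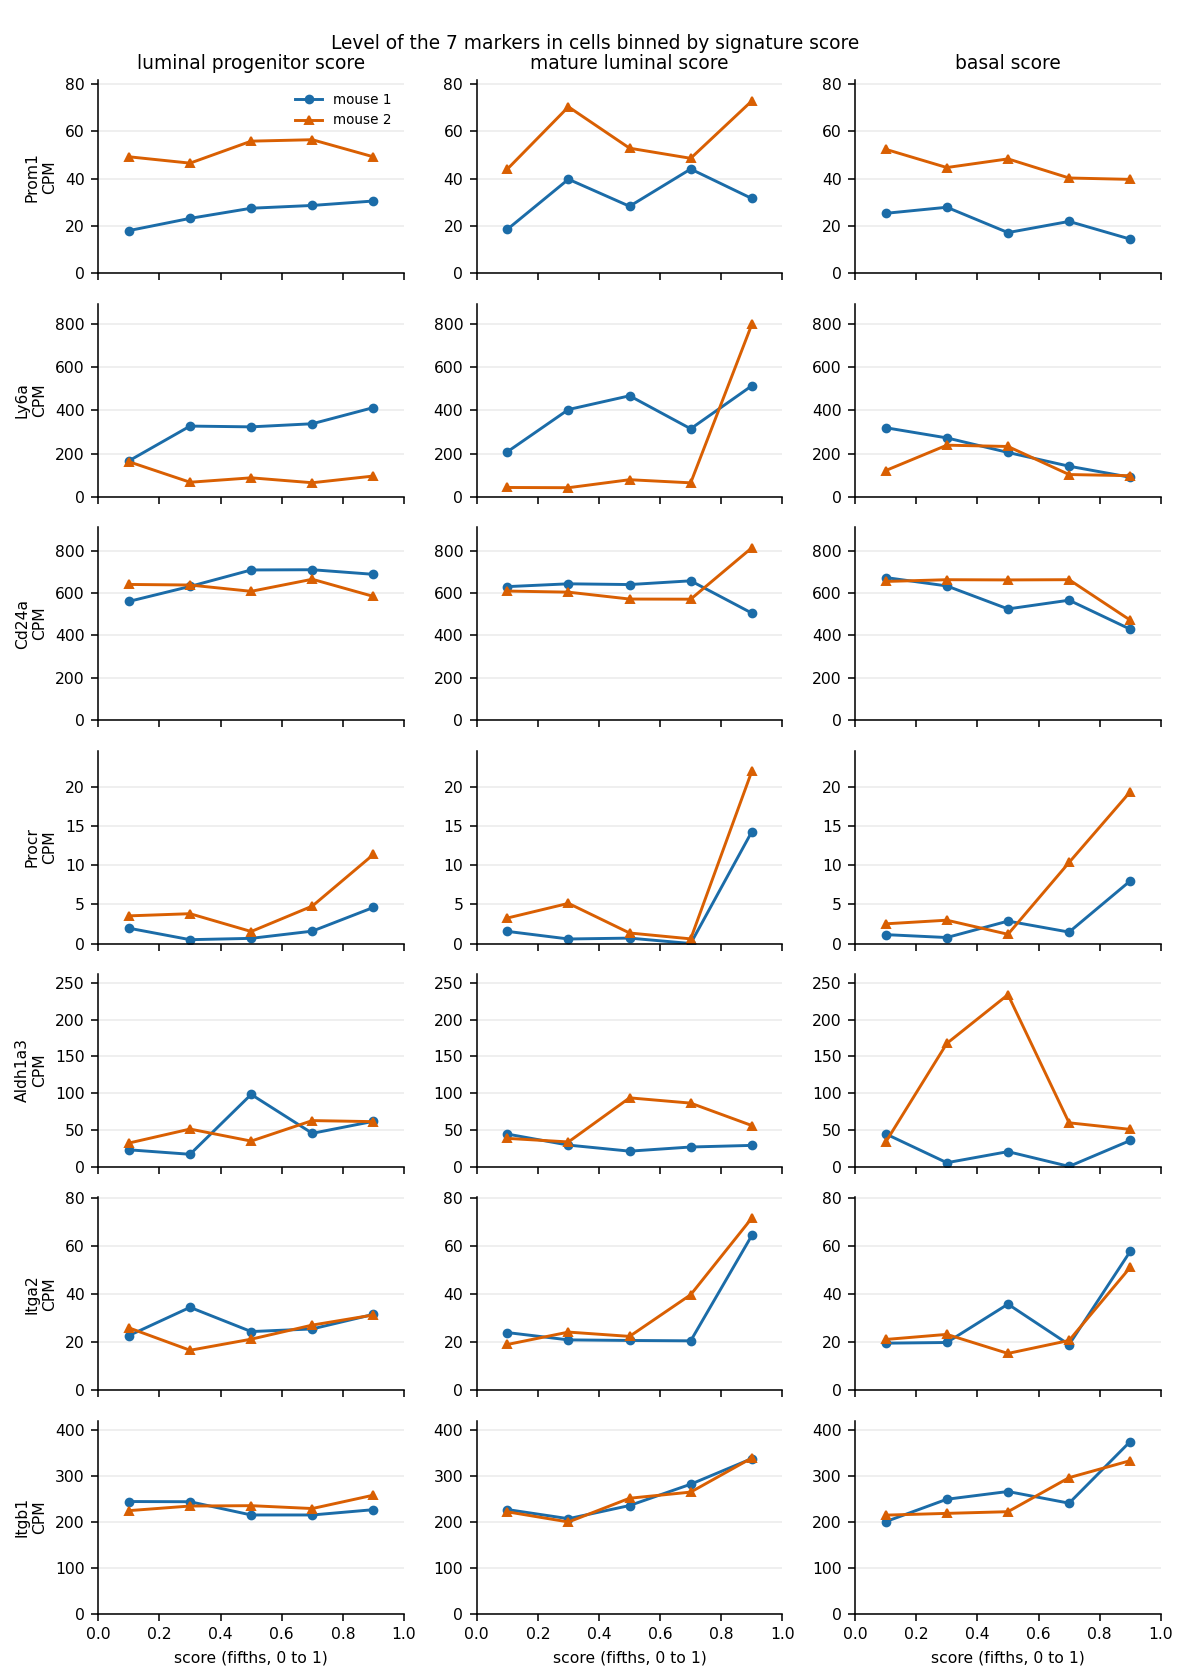
CPM of each marker (rows) in cells grouped by 5 equal ranges of the luminal progenitor, mature luminal and basal scores (columns, low to high), in mouse 1 (circles) and mouse 2 (triangles). Itga2 and Itgb1 were higher at the top of the basal score in both mice (57.7 and 51.1 CPM for Itga2), and Ly6a reached 799 CPM at the top of the mature-luminal score in mouse 2.

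Genes that work beside the markers were taken from lists, and each count is set beside the share of all genes given above. Of 15 other mammary stem and progenitor markers, 13 were tested. In cluster 6 against cluster 13, 4 were higher and 0 lower. These were the Notch ligand Dll1 (log2 fold change 3.71), Lgr6 (3.34), the hyaluronan receptor Cd44 (2.64) and Tspan8 (2.09). The median over the list was 0.93, against -0.01 over all genes tested. Against the 16 clusters, 5 were higher and 1 lower in cluster 6, among them Cd200 (2.30), Dll1 (2.21), Itgb3 (1.92) and the receptor tyrosine kinase Kit (-1.88). In cluster 13, 2 were higher and 4 lower, among them Lgr6 (-2.36), Tspan8 (-2.35), Cd200 (2.34) and Kit (-1.92). Cd200 and Itgb3 were higher in both clusters and Kit lower in both, whereas Lgr6 was higher in cluster 6 and lower in cluster 13. These counts were the same without the cells that held genes of other types.

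Itgb1 pairs with 11 other alpha chains on the list, of which 8 were tested. In cluster 6 against cluster 13, 3 were higher and 0 lower, the collagen receptor chain Itga1 (4.36), Itga8 (2.86) and the laminin receptor chain Itga3 (1.32), and the median of the list was 1.74. Against the 16 clusters, 6 of 8 were higher in cluster 6 and 0 lower, with the fibronectin receptor chain Itga5 (6.18), Itga7 (3.82), Itga1 (3.00) and Itga9 (2.32) as the largest. Without the cells that held genes of other types, 5 of 8 were higher. In cluster 13, 2 were higher (Itga5, 5.47, and Itgav, 1.03) and 1 was lower (Itga8, -2.41). Itga6, which encodes the sorting marker CD49f, had -0.03 (SE 0.43, adjusted p = 0.98) in cluster 6 against cluster 13.

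Of 8 other Ly6 genes, 4 were tested. Their order resembled that of Ly6a in cluster 13, where Ly6d (5.54), Ly6c1 (5.38) and Ly6k (4.38) were higher than in the 16 clusters and none was lower. In cluster 6 against cluster 13, 3 were lower (Ly6k, -3.89, Ly6d, -3.83, and Ly6e, -1.03), with a list median of -2.43. Without the cells that held genes of other types all 4, Ly6c1 among them, were lower, with a median of -3.34. Against the 16 clusters, Ly6c1 (4.77) and Ly6d (1.71) were higher and Ly6e (-0.72) lower in cluster 6.

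Aldh1a3 was the retinal dehydrogenase with the most UMIs, 4832 in all, since Aldh1a1 had 93 and Aldh1a2 had 8 and neither was tested. Of 10 other aldehyde dehydrogenases 5 were tested. Mitochondrial Aldh2 was higher in cluster 6 than in cluster 13 (1.54), and Aldh3a2 (-3.64) and Aldh3b1 (-2.84) were lower, with a list median of -0.29. Aldh3a2 (-0.86) and Aldh7a1 (-0.61) were lower in cluster 6 than in the 16 clusters and none was higher. Without the cells that held genes of other types neither direction held a call. In cluster 13, Aldh3a2 (2.78) and Aldh3b1 (1.99) were higher and Aldh2 (-1.39) lower. Of 7 genes of retinoic acid handling and response, 4 were tested. In cluster 6 against cluster 13, 2 were higher and 0 lower, among them the retinoic acid hydroxylase Cyp26b1 (6.21), which had 0 and 1 UMIs in cluster 13. Against the 16 clusters, 3 were higher and 0 lower in cluster 6, among them Cyp26b1 (3.92) and Dhrs3 (0.77), and without the cells that held genes of other types 2 were higher. In cluster 13, 1 was higher (Dhrs3, 0.94) and 1 was lower.

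Of 8 protein C and coagulation partners of Procr, 5 were tested. The thrombin receptor F2r (4.01) and the protein S gene Pros1 (3.40) were higher in cluster 6 than in cluster 13. Protein C itself (Proc), with 0 UMIs in cluster 6 of either mouse and 13 and 29 UMIs in cluster 13, and tissue factor F3 (-3.31) were lower. The list median was -0.59. Against the 16 clusters, F2r (2.21) and Pros1 (1.47) were higher in cluster 6, and in cluster 13 Proc (6.99) and F3 (3.37) were higher and Pros1 (-1.93) lower. Without the cells that held genes of other types, 2 of 5 were again higher and 2 lower in cluster 6 against cluster 13, and 1 of 5 was higher against the 16 clusters.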

How the data were processed

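The authors deposited raw UMI counts per gene and barcode from Cell Ranger 6.0.1 on mm10, and a cell annotation made with Seurat (4.0.3 in the submitters' processing notes) in which doublets, cells of few UMIs, outlying mitochondrial shares and lymphoid and myeloid clusters had been removed. The deposited VAM scores, as a fraction from 0 to 1, and the cluster of each cell were used as given. The authors' deposited mitochondrial fraction and distances behind the scores were not used in any comparison. The annotation covers 9159 cells of 2 libraries with 63140346 and 61529883 UMIs. The markers and lists were chosen with earlier results of these data known. The names follow a rule: all 7 markers, the 3 genes most like each, and up to 4 called genes of each list and comparison by size of change. Some genes that the rule names are not reported here.

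UMIs were summed per mouse and cluster (36 sums), since cells of 1 mouse are not replicates. edgeR 4.0.16 (R 4.3.3) was used with filterByExpr, TMM, a quasi-likelihood fit and the mouse as a block. P-values were adjusted by Benjamini-Hochberg over all 11603 genes, at a threshold of 0.05. The samples are paired by animal. Differences between mouse 1 and mouse 2 correlated between clusters with a median r of 0.18 (-0.03 to 0.68, 153 pairs), and 0.13 for clusters 6 and 13. The fit had 17 residual degrees of freedom, and standard errors were obtained by dividing each log2 change by the root of its F. The test was tried on simulated data. Thinning was without replacement (random seed 1). Positions are from GENCODE vM21. Alternatives were DESeq2 1.42.0, no TMM, no filter, no block, thinned cells, other sets of cells or clusters, and leaving out each sum.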

Additional observations from a re-analysis of the deposited data

Results flagged for a closer look

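All 7 markers had UMIs in barcodes that the authors' annotation does not hold, above the level that a count of 0 allows (0.665 CPM in mouse 1 and 0.658 CPM in mouse 2 at a floor of 3 UMIs). These 2346 and 2208 barcodes had a median mitochondrial share of 85.7% and 72.4%, against 6.20% and 5.42% in annotated cells, and enter no comparison. Cd24a reached 152 and 172 CPM in them, against 624 and 628 CPM in annotated cells. Itgb1 reached 131 and 154 CPM, against 235 and 234 CPM, and Ly6a 65.0 and 37.3 CPM, against 271 and 122 CPM. Prom1 reached 21.3 and 25.9 CPM, against 23.3 and 50.04 CPM, Itga2 9.09 and 4.83 CPM, against 26.6 and 25.7 CPM, and Aldh1a3 8.20 and 5.49 CPM, against 40.0 and 43.7 CPM. Procr was the exception in mouse 2, with 10.3 CPM (47 UMIs) against 5.21 CPM, and had 2.22 CPM (10 UMIs) against 2.35 CPM in mouse 1.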

How the results depend on the processing

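With 2 mice, p-values rest on the spread over 36 sums shared by all clusters, and a sum left alone in its cluster is assumed to vary like the rest. Of 265 alternative values of the marker tests, 245 kept their direction and their side of the threshold, 15 lost the call, 3 gained one and 2 turned. The 2 that turned were Aldh1a3 in clusters 6 and 13 against the others with those cells pooled to 1 sum per mouse (-0.10 and -1.55). Procr fell under the filter in the thinned cells and without the cells that held genes of other types, so it has no value there. Leaving out those cells together with the filter was chosen after seeing the data, and Aldh1a3 then passed in cluster 6 against cluster 13 (1.62, adjusted p = 0.034). Without the replicate block, Ly6a in cluster 6 against the others lost its call (1.15), and no other call of a marker changed.

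Fewer genes passed in thinned cells, where 6694 were tested: 969 in cluster 6 against cluster 13, 1232 and 1151 in clusters 6 and 13 against the others, and 4447 among clusters, against 2583, 2938, 3139 and 9402. Leaving out 1 sum gave 1471 to 1882, 1263 to 2246 and 1534 to 1760 genes in those 3 comparisons. Without TMM, 1664 genes were higher and 904 lower in cluster 6 against cluster 13, against 1380 and 1203 with it, and 1620 and 1506 in cluster 13 against the others, against 1923 and 1216. Of 131 alternatives to levels, shares, score ratios and ranks of likeness, 68 moved by more than the spread between the mice, among them most shares of cells with a UMI, which follow the depth they are read at.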
